A study of Mus musculus with 15 samples.

Results

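The SOCS family of cytokine feedback inhibitors, Socs1 to Socs7 and Cish, was followed across 5 groups of mouse CD4 T cell cultures. Its 8 genes were found among the 55421 genes of the expression table by matching Ensembl IDs to symbols. The groups held 3 poly(A) RNA-seq libraries each. They were TH17 cultures given the compound Srci1, TH17 cultures from STAT3-fl/fl CD4-cre mice given DMSO, Treg cultures given Srci1, Treg cultures given DMSO, and TH17 cultures given DMSO. In the knockout a Cre recombinase driven by Cd4 deletes Stat3 in T cells, and the other groups are labelled wild type. All 5 groups began as naive CD4 T cells sorted from spleen and lymph nodes, were stimulated through CD3 and CD28 with IFNγ and IL-4 blocked, and were harvested on day 5. TH17 cultures were polarised by IL-6, IL-23 and IL-1β beside 2.5 ng/ml TGFβ. Treg cultures were polarised by IL-2 and TGFβ, for which the protocol gives 0.5 ng/ml or an indicated dose, so cell type cannot be told apart from the cytokines given. Srci1 went in 24 hours after plating, at a concentration the labels do not state. The labels give no mouse age and do not say that replicates are separate mice or cultures. P-values therefore gauge library-to-library spread alone, and that spread may be technical.

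SOCS proteins are induced by the cytokine signals that they then restrain. Each carries an SH2 domain, which binds phosphorylated tyrosines on receptors or kinases, and a SOCS box, which recruits Elongin B and C and a Cullin ubiquitin ligase. SOCS1 and SOCS3 can also block JAK catalytic activity directly. In T cells, SOCS3 restrains the IL-6 family receptor chain gp130 and STAT3, while CISH and SOCS2 are known as products of IL-2 and STAT5 signalling.

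Levels are in TPM, a share of all transcripts that is corrected for transcript length, so genes can be set beside each other. TPM sums to a fixed total, so the sequencing depth is unknown. Bulk values cannot tell fewer cells of a type apart from less RNA per cell. Over the 12800 genes tested, r was 0.977 to 0.986 between replicates and 0.902 to 0.97 between groups. The ribosomal protein share of TPM averaged 22.1% in Srci1 TH17 libraries, 28.7% in knockout, 20.9% in Srci1 Treg, 25.0% in DMSO Treg and 28.4% in DMSO TH17 libraries. Among DMSO TH17 libraries replicate 3 had the highest share, 30.4%, and its median-of-ratios size factor, a scale for the typical gene, was 0.788, against 0.905 to 1.12 in the other 14. Stat3 stood at 34.2 ± 3.90 TPM in the knockout and 120.8 ± 18.3 TPM in DMSO TH17 libraries (SD, n = 3 each, as for every mean below). Summed TH17 marker TPM (6 genes) was 666 to 716 with Srci1, 180 to 199.9 in the knockout, 26.3 to 31.2 and 43.0 to 46.0 in Treg cultures with Srci1 and DMSO, and 4027 to 4177 in DMSO TH17 libraries. That sum does not speak for each marker. By the test described below, 5 of the 6 were lower and 1 higher in the knockout than in DMSO TH17 libraries. In each Treg group 3 of the 6 stayed under 1 TPM. Foxp3, which defines Treg cells, averaged 203.6 TPM in Srci1 TH17, 204.6 TPM in knockout, 268.5 TPM in Srci1 Treg, 129.7 TPM in DMSO Treg and 11.7 TPM in DMSO TH17 libraries. The Foxp3 level thus did not separate the cultures labelled TH17 from those labelled Treg. Foxp3 does not speak for the whole list of 6 Treg markers to which it belongs. By the same test, 2 of the 6 were higher and 3 lower in DMSO Treg than in DMSO TH17 cultures. In the knockout, 3 were higher and 3 lower than in DMSO TH17 cultures.

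Cytokine-activated STAT factors bind the palindrome TTCNNNGAA, where N is any base and which is its own reverse complement, so a search of either strand finds the same copies. RefSeq promoter windows on GRCm38.p6, from 250 bases before to 50 after a gene's start, were at hand for 4 of the 8 genes (Cish, Socs1, Socs3 and Socs4). The palindrome occurred in Cish and Socs3 and not in the Socs1 and Socs4 windows. The stretches that hold it are shown because these genes lead the results below, with the palindromes in capitals.
Cish: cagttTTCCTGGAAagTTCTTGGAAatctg
Socs3: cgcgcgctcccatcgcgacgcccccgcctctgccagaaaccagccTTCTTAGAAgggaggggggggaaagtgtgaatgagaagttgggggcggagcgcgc
The Cish stretch is chr9:107296654-107296683 on the plus strand. Its 2 non-overlapping copies lie at bases 1 to 9 and 12 to 20 counted from the RefSeq start, inside the 5′ UTR exon of Cish-201, 1 of 5 transcripts annotated by GENCODE. The Socs3 stretch is chr11:117969466-117969565 on the minus strand. Its copy lies 154 to 146 bases before the RefSeq start, in an intron of Socs3-202, 1 of 3 annotated transcripts. That window ends upstream of Socs3-201, whose first base is 117969186 on chromosome 11, so the sequence next to that start was not searched. Of 32851 promoter windows of the same length, 8.3% held at least 1 copy and 0.457% held 2 or more. A match is a run of letters and was not tested for binding.

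The members differed in abundance. Socs2 and Cish were the most abundant members in all 5 groups, Socs3 and Socs1 lay between, and Socs4, Socs5, Socs6 and Socs7 stayed under 15 TPM in all 15 libraries. In the knockout Socs3, at 10.2 ± 0.55 TPM, lay in the range of this last set. Across the 5 group means, the highest exceeded the lowest 15.1-fold for Socs3, 4.60-fold for Socs2, 3.37-fold for Cish, 2.57-fold for Socs4 and 2.36-fold for Socs1. It did so 1.65-fold for Socs5, 1.57-fold for Socs7 and 1.34-fold for Socs6.

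**Figure D1:**
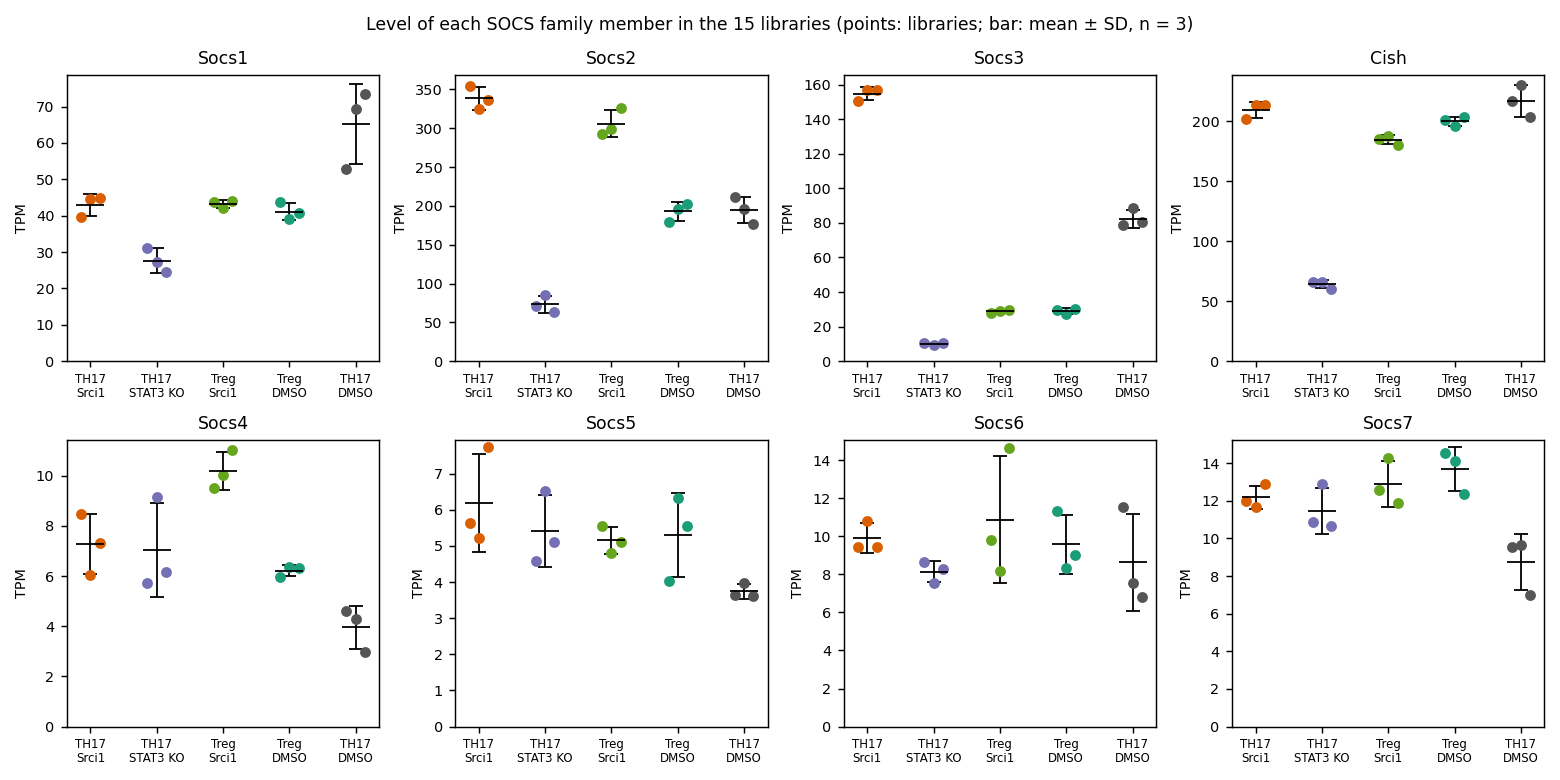
TPM (vertical axes, each from 0) of the 8 genes in each library (points) of the 5 groups, with group means and SD as black bars (n = 3). Socs3 is highest in Srci1 TH17 cultures, and Socs1, Socs2, Socs3 and Cish are lowest in the STAT3 knockout.

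Socs3 encodes the inhibitor that binds gp130 and spans 117966079 to 117970047 of chromosome 11 (minus strand). In TH17 cultures it was at 151, 157 and 157 TPM with Srci1 and at 10.4, 9.63 and 10.7 TPM in the STAT3 knockout, against 78.6, 88.5 and 80.3 TPM with DMSO. In Treg cultures it was at 28.0, 28.99 and 29.9 TPM with Srci1, against 29.7, 27.4 and 30.2 TPM with DMSO. The TH17 groups did not overlap one another or the Treg groups, and the libraries of the Treg groups were interleaved. From high to low, the order was Srci1 TH17, DMSO TH17, DMSO Treg, Srci1 Treg and knockout TH17, and only the Treg neighbours did not differ by the test.

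Cish encodes a STAT5-induced inhibitor that acts at the IL-2 receptor and, in mouse CD8 T cells, on T cell receptor signalling. The gene spans 107296026 to 107302784 of chromosome 9 (plus strand). In TH17 cultures it was at 202, 213 and 213 TPM with Srci1 and at 66.4, 65.9 and 60.5 TPM in the knockout, against 217, 230 and 203 TPM with DMSO. In Treg cultures it was at 185, 188 and 180 TPM with Srci1, against 201, 196 and 203 TPM with DMSO. All knockout libraries lay far below the other 12, which spanned 180.4 to 230.3 TPM. In the order DMSO TH17, Srci1 TH17, DMSO Treg, Srci1 Treg and knockout, no neighbours differed by the test except the last pair. On the opposite strand, the transcribed processed pseudogene Gm17040 and the antisense gene Gm17041 overlap Cish. With strand handling not given in the sources used here shared reads are possible, although Gm17040 and Gm17041 reached at most 2.64 and 1.7 TPM.

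Socs2, an inhibitor best known for restraining growth hormone signalling, spans 95385362 to 95417180 of chromosome 10 (minus strand). In TH17 cultures it was at 355, 324 and 336 TPM with Srci1 and at 71.4, 85.3 and 63.9 TPM in the knockout, against 211, 196 and 177 TPM with DMSO. In Treg cultures it was at 293, 299 and 326 TPM with Srci1, against 179, 196 and 203 TPM with DMSO. Both Srci1 groups thus lay above both DMSO groups, and the knockout lay below all. The Srci1 groups of both cell types did not differ from each other by the test (log2 difference of TH17 over Treg 0.15, 95% interval -0.06 to 0.35, adjusted p = 0.2598), nor did the DMSO groups.

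Socs1, the JAK inhibitor best known for restraining interferon signalling, spans 10782240 to 10785536 of chromosome 16 (minus strand). In TH17 cultures it was at 39.5, 44.6 and 44.9 TPM with Srci1 and at 31.2, 27.2 and 24.4 TPM in the knockout, against 52.8, 69.4 and 73.5 TPM with DMSO. In Treg cultures it was at 43.7, 42.1 and 44.1 TPM with Srci1, against 43.7, 39.1 and 40.6 TPM with DMSO. The DMSO TH17 libraries were the 3 highest of the 15 and the most spread. Socs1 levels in Srci1 TH17 and both Treg groups lay within 39.1 to 44.9 TPM and did not differ by the test.

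Socs4 and Socs5, a closely related pair linked to EGF receptor turnover, lie on chromosome 14 (47276931 to 47296102) and chromosome 17 (87107679 to 87137839), both on the plus strand. Socs4 was at 8.48, 6.06 and 7.30 TPM in Srci1 TH17 and 5.73, 9.17 and 6.18 TPM in knockout libraries, against 4.60, 4.30 and 2.99 TPM in DMSO TH17 libraries. It was at 9.53, 10.0 and 11.03 TPM in Srci1 Treg libraries, against 5.97, 6.37 and 6.31 TPM in DMSO Treg libraries. DMSO TH17 libraries were thus the lowest for Socs4 and Srci1 Treg libraries the highest. Socs5 ran from 3.62 TPM, in a DMSO TH17 library, to 7.73 TPM, in an Srci1 TH17 library.

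Socs6 and Socs7, a second related pair that binds insulin receptor substrates and receptor tyrosine kinases, lie on chromosome 18 (88665224 to 88927481, minus strand) and chromosome 11 (97362551 to 97398542, plus strand). Socs7 was at 11.97, 11.7 and 12.9 TPM in Srci1 TH17 and 10.9, 12.9 and 10.7 TPM in knockout libraries, against 9.54, 9.63 and 7.02 TPM in DMSO TH17 libraries. Its Treg libraries lay at 11.9 to 14.3 TPM with Srci1 and 12.4 to 14.6 TPM with DMSO, all above the DMSO TH17 libraries. Socs6 ranged from 6.83 TPM in a DMSO TH17 library to 14.7 TPM in an Srci1 Treg library, and differed between no 2 groups by the test.

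The tests compared log2(TPM + 1) in limma over all 12800 genes, and calls were made where the adjusted p (Benjamini-Hochberg) was under 0.05. On that scale the change of low genes is understated. The median log2 difference of all genes tested was 0.21 for Srci1 over DMSO in TH17 cultures, 0.13 for knockout over wild type, 0.11 for Srci1 over DMSO in Treg cultures, 0.18 for Treg over TH17 cultures in DMSO, 0.13 for the difference in Srci1 effect between TH17 and Treg cultures, and 0.11 for Srci1 over knockout. Many differences are therefore also given after subtracting this median, as relative differences. Median-of-ratios scaling brought those medians to between -0.007 and 0.014, and the split of called genes moved with them. Genes higher and lower under that scaling numbered 2126 and 2112 with Srci1 in TH17 cultures (4324 and 906 as deposited), 3290 and 3245 in the knockout (3952 and 2414), and 1369 and 1763 with Srci1 in Treg cultures (2192 and 1285). They numbered 2701 and 2789 in Treg over TH17 cultures (4132 and 1605), 1137 and 710 for the difference in Srci1 effect (1443 and 378) and 3147 and 3130 for Srci1 over knockout (3922 and 2361).

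With Srci1 in TH17 cultures, 5 members rose, 1 fell and 2 did not pass the test, where 33.8% of all genes tested were called higher and 7.08% lower. Socs3 was 1.88-fold higher (log2 difference 0.90, relative 0.69, adjusted p = 4.666e-07). Socs2 rose 1.74-fold (0.80, relative 0.58, adjusted p = 2.902e-05) and Socs4 1.84-fold (0.74, relative 0.53, adjusted p = 0.003873). Socs1 moved the other way, 1.52-fold lower (-0.58, relative -0.79, adjusted p = 0.001542). Socs5 and Socs7 rose by 0.59 and 0.45 (adjusted p = 0.01322 and 0.01194), but neither was called under median-of-ratios scaling (0.36 and 0.20, adjusted p = 0.09788 and 0.1185) or quantile normalization, Socs5 not without Srci1 replicate 3 (adjusted p = 0.06709) and Socs7 not with only the compared groups in the model (0.06817). Cish differed by -0.05 (95% interval -0.17 to 0.07, adjusted p = 0.5302) and Socs6 by 0.21 (-0.23 to 0.64, adjusted p = 0.4405). Under median-of-ratios scaling Cish was called lower (-0.32, adjusted p = 0.001369) and Socs6 was at -0.04. That scaling thus called 3 members higher and 2 lower, with Socs2 at 0.53, as did quantile normalization, with Socs4 at 0.48. Summed CD8 T and NK cell marker TPM (7 genes) was 89.6 to 118 with Srci1 and 52.2 to 54.3 with DMSO, with Klrb1c and Ncr1 at 0 in all 3 Srci1 libraries and Ncr1 in all 3 DMSO libraries. Of the 5 tested, 3 were called higher with Srci1 and 1 lower. Summed Treg marker TPM (6 genes) was 1739 to 1929 with Srci1 and 937 to 1265 with DMSO. Most of that sum was Il2ra, which averaged 1208 and 692 TPM. Of the 6 markers, 4 were called higher and 1 lower. The part of these markers in the SOCS levels was not tested.

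In the STAT3 knockout TH17 cultures, 4 members fell, 3 rose and Socs6 did not pass the test, where 30.9% of all genes were called higher and 18.9% lower. The 4 that fell are the 4 abundant members. Socs3 was 8.05-fold lower (log2 difference -2.89, relative -3.02, adjusted p = 5.692e-13) and Cish 3.37-fold lower (-1.74, relative -1.87, adjusted p = 1.178e-11). Socs2 was 2.65-fold lower (-1.40, relative -1.53, adjusted p = 3.042e-08) and Socs1 2.36-fold lower (-1.20, relative -1.33, adjusted p = 1.068e-06). Each of these 4 calls held under all 15 alternatives run. The libraries of the groups did not overlap for these 4 genes, nor for Socs4, Socs5 and Socs7. The share of all genes without overlap was not worked out, so this separation is a description and adds nothing to the calls. Socs4 rose 1.77-fold (0.68, relative 0.56, adjusted p = 0.004432). Socs7 was higher by 0.36 (adjusted p = 0.02697), a call lost without knockout replicate 2 (0.1096), without DMSO replicate 3 (0.1107), with only the compared groups (0.1225), with array weights (0.1382) or with quantile normalization (0.1588). Socs5 was at the edge (0.42, adjusted p = 0.04966) and lost its call in 11 of 15 alternatives, with adjusted p over those 15 from 0.03624 to 0.3108. These 11 include leaving out any DMSO library or knockout replicate 2 or 3, and median-of-ratios scaling, which called 2 members higher and 4 lower (1 and 4 under quantile normalization). Summed B cell marker TPM (6 genes) was 13.3 to 13.9 in the knockout and 2.77 to 3.78 in DMSO libraries, with no marker at 0 throughout either group. Of the 4 B cell markers tested, 3 were called higher and 1 lower in the knockout. Myeloid and dendritic marker TPM (7 genes) was 12.9 to 14.9 in the knockout and 3.89 to 7.15 in DMSO libraries, with Cd14 at 0 in all 3 knockout libraries and Adgre1 in all 3 DMSO libraries. Summed CD8 T and NK marker TPM ran the other way, at 19.1 to 23.1 in the knockout and 52.2 to 54.3 in DMSO libraries, with Ncr1 at 0 throughout both groups. That sum does not speak for each marker: of 5 tested, 2 were called higher and 2 lower in the knockout. The part of these markers in the result was not tested.

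With Srci1 in Treg cultures, 2 members rose and none fell at adjusted p under 0.05 in limma, where 17.1% of all genes were called higher and 10.0% lower. Socs2 was 1.59-fold higher (log2 difference 0.66, relative 0.55, adjusted p = 0.0001995). Socs4 was 1.64-fold higher (0.63, relative 0.52, adjusted p = 0.01506), a call that without Srci1 replicate 3 became 0.58 at adjusted p = 0.05773 and left Socs2 as the 1 member called. Socs3 differed by -0.01 (95% interval -0.15 to 0.14, adjusted p = 0.9694), and its relative difference was -0.12. Socs1 differed by 0.07 (-0.18 to 0.32) and turned to -0.05 under median-of-ratios scaling and under quantile normalization. Cish differed by -0.12 (-0.24 to 0.01, adjusted p = 0.1472), with the Srci1 libraries all below the DMSO libraries. It was called lower under 5 of 15 alternatives, for example at -0.24 with median-of-ratios scaling (adjusted p = 0.01105), and over all 15 its adjusted p ran from 0.005548 to 0.3114. Median-of-ratios scaling and quantile normalization each called 2 members higher and Cish lower. Summed CD8 T and NK marker TPM was 10.8 to 12.1 with Srci1 and 23.0 to 24.2 with DMSO, with Ncr1 at 0 throughout both groups and Klrb1c throughout the DMSO group. That sum does not speak for each marker: of 5 tested, 1 was called higher with Srci1 and 1 lower. Summed myeloid and dendritic marker TPM was 1.82 to 2.85 with Srci1 and 3.86 to 5.06 with DMSO, with Lyz2 at 0 throughout both groups and Cd14 and Itgax throughout the Srci1 group. The part of these markers in the result was not tested.

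**Figure D2:**
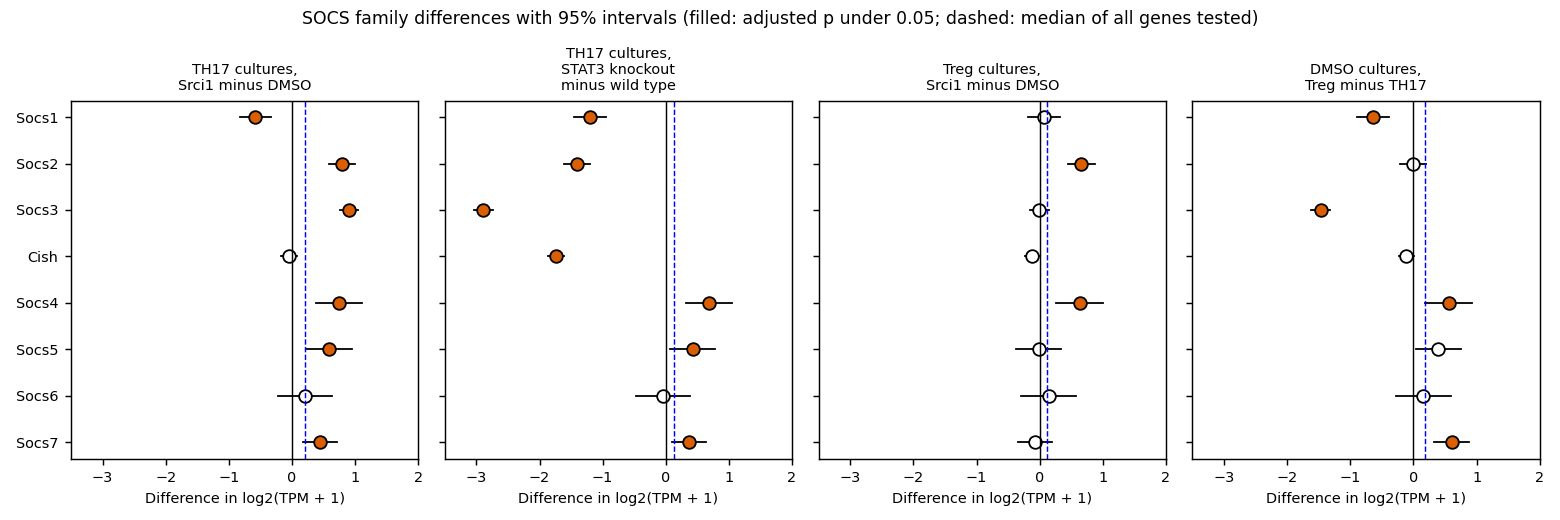
Difference in log2(TPM + 1) of each gene (circles, filled where adjusted p is under 0.05) with its 95% interval, in 4 comparisons; the dashed line is the median of all genes tested. Socs3 is at 0.90 with Srci1 in TH17 cultures, -2.89 in the knockout, -0.01 with Srci1 in Treg cultures and -1.47 for Treg over TH17 cultures.

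The response to Srci1 was then compared between the cell types in the same model, as the log2 difference in TH17 minus that in Treg cultures. Socs3 and Socs1 differed between cell types and the other 6 members did not pass the test, where 11.3% of all genes were called with a higher and 2.95% with a lower effect in TH17 cultures. For Socs3 the Srci1 difference was 0.91 greater in TH17 cultures (relative 0.78, adjusted p = 4.286e-05). For Socs1 it was -0.65 (relative -0.78, adjusted p = 0.01773). Both calls held under all 21 alternatives run, where Socs1's adjusted p reached 0.04602. Socs2, which rose with Srci1 in both cell types, gave 0.13 (95% interval -0.16 to 0.42), and Socs4, which also rose in both, gave 0.11 (-0.41 to 0.63). Those intervals leave room for unequal effects, and Socs2 turned to -0.01 under median-of-ratios scaling. Socs5 and Socs7 gave 0.60 and 0.53 with adjusted p = 0.1115 and 0.06581, and Socs7 was called with array weights (0.04259) or without DMSO TH17 replicate 1 (0.04811).

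In DMSO, Treg cultures had less Socs3 and Socs1 and more Socs4 and Socs7 than TH17 cultures, where 32.3% of all genes were called higher in Treg cultures and 12.5% lower. Socs3 was 2.84-fold lower in Treg cultures (log2 difference -1.47, relative -1.65, adjusted p = 1.055e-09) and Socs1 1.59-fold lower (-0.64, relative -0.82, adjusted p = 0.0005343). Socs7 was 1.57-fold higher (0.60, relative 0.42, adjusted p = 0.001571, and 0.34 under quantile normalization). Socs4 was higher by 0.56 (adjusted p = 0.01776), a call lost under quantile normalization (0.30, adjusted p = 0.07129) and without DMSO TH17 replicate 3 (0.41, adjusted p = 0.07959). Socs2 differed by -0.01 (95% interval -0.22 to 0.19), and was called lower only under median-of-ratios scaling (-0.23, adjusted p = 0.01352). Cish differed by -0.11 (-0.24 to 0.01) and was called lower under 5 of 15 alternatives, of which leaving out DMSO TH17 replicate 3 was 1 (-0.16, adjusted p = 0.03479). Median-of-ratios scaling thus called 2 members higher and 4 lower in Treg cultures, and quantile normalization 1 and 3. Socs5 gave 0.39 (adjusted p = 0.07201) and was called without DMSO Treg replicate 1 (0.55, adjusted p = 0.02184). Summed CD8 T and NK marker TPM was 23.0 to 24.2 in DMSO Treg and 52.2 to 54.3 in DMSO TH17 libraries, with Ncr1 at 0 throughout both groups and Klrb1c throughout the Treg group. Of the 5 markers tested, 1 was called higher and 3 lower in Treg cultures. The part of these markers in the result was not tested.

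Srci1 and knockout TH17 cultures were also set directly against each other. All 4 abundant members were higher with Srci1 and none was lower, where 30.6% of all genes were called higher and 18.4% lower. Socs3 was 15.1-fold higher with Srci1 (log2 difference 3.79, relative 3.68, adjusted p = 2.058e-13) and Socs2 4.60-fold (2.20, relative 2.08, adjusted p = 2.957e-10). Cish was 3.26-fold higher (1.69, relative 1.58, adjusted p = 2.029e-11) and Socs1 1.56-fold (0.63, relative 0.51, adjusted p = 0.0005078). Socs4, Socs5, Socs6 and Socs7 differed by 0.06, 0.16, 0.25 and 0.08 and were not called. Socs1 was thus lower than in DMSO cultures in both groups, with the knockout lower than Srci1. Both comparisons to DMSO share the same 3 DMSO libraries. The difference of 0.06 for Socs4 (95% interval -0.31 to 0.43) is that of 2 groups that both lay above DMSO. Summed CD8 T and NK marker TPM was 89.6 to 118 with Srci1 and 19.1 to 23.1 in the knockout, with Ncr1 at 0 throughout both groups and Klrb1c throughout the Srci1 group. That sum does not speak for each marker: of 5 tested, 1 was called higher with Srci1 and 2 lower. B cell marker TPM was 1.89 to 3.24 with Srci1, where Ms4a1 was at 0 throughout, and 13.3 to 13.9 in the knockout. Of the 4 B cell markers tested, 1 was called higher with Srci1 and 3 lower. Myeloid and dendritic marker TPM was 4.21 to 5.09 with Srci1, where Lyz2 was at 0 throughout, and 12.9 to 14.9 in the knockout, where Cd14 was. The part of these markers in the result was not tested.

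The other pairs of groups place the knockout below every group for the abundant members. Against Srci1 Treg libraries, where 47.4% of all genes were called in either direction, knockout TH17 libraries were lower in Socs2 (log2 difference -2.05), Cish (-1.51), Socs3 (-1.42), Socs1 (-0.64) and Socs4 (-0.50, adjusted p = 0.02752). Against DMSO Treg libraries, where 42.0% were called, they were lower in Cish (-1.62), Socs3 (-1.42), Socs2 (-1.39) and Socs1 (-0.56, adjusted p = 0.00143). Socs3 was therefore lower in knockout TH17 than in either Treg group, 2.83-fold and 2.84-fold. Between the Srci1 groups, where 36.1% of genes were called, Socs3 was 5.34-fold higher in TH17 than in Treg cultures (2.38, adjusted p = 9.48e-12) and Cish 1.14-fold higher (0.18, adjusted p = 0.02193). Srci1 TH17 against DMSO Treg libraries, where 35.2% were called, gave Socs3 and Socs2 higher (2.37 and 0.81) and no other call. Srci1 Treg against DMSO TH17 libraries, where 59.0% were called, gave Socs2, Socs4 and Socs7 higher (0.65, 1.19 and 0.52) and Socs1, Socs3 and Cish lower (-0.57, -1.48 and -0.23). In the same order, the relative differences were 0.36, 0.90 and 0.23, and -0.86, -1.77 and -0.52. The pairs in this paragraph were not refitted under other scalings, so how far their calls depend on scaling is unknown.

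The summed level and the make-up of the family differed with these shifts. The 8 genes together held 781 ± 7.91 TPM in Srci1 TH17, 208 ± 17.2 TPM in knockout, 602 ± 18.6 TPM in Srci1 Treg, 498 ± 11.1 TPM in DMSO Treg and 584 ± 27.6 TPM in DMSO TH17 libraries. After median-of-ratios scaling the sums were 740 in Srci1 TH17, 216 in knockout, 542 in Srci1 Treg, 489 in DMSO Treg and 668 in DMSO TH17 libraries, so Srci1 Treg lay above DMSO TH17 libraries as deposited and below them after scaling. Socs3 made up 19.8%, 4.97%, 4.81%, 5.84% and 14.1% of that sum in the same groups. Socs2 was the largest share with Srci1, at 43.3% in TH17 and 50.8% in Treg cultures, while in DMSO TH17 cultures Cish was the largest, at 37.1%. In DMSO Treg cultures the mean shares of Cish and Socs2, 40.2% ± 0.73 and 38.7% ± 1.78, differed by less than their spread, and Socs2 was the larger in replicate 2. In the knockout, Socs2 held 35.3%, Cish 31.0% and Socs1 13.3%. Socs3 was at 0.739 of the Cish level in Srci1 TH17 libraries, 0.160 in the knockout, 0.157 in Srci1 Treg, 0.145 in DMSO Treg and 0.381 in DMSO TH17 libraries. The knockout thus had a ratio of Socs3 to Cish near that of the Treg groups; its Cish level was 64.3 ± 3.25 TPM, against 184.5 ± 3.70 TPM in Srci1 Treg and 199.9 ± 3.72 TPM in DMSO Treg libraries. Socs3 exceeded Socs1 3.61-fold in Srci1 TH17 and 1.29-fold in DMSO TH17 libraries, and was below Socs1 in the other 3 groups.

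**Figure D3:**
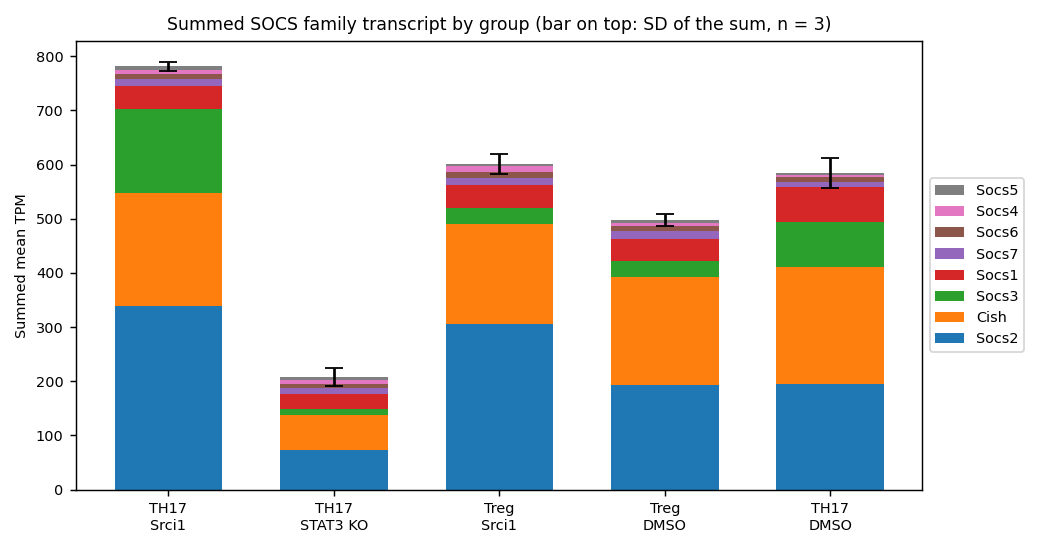
Mean TPM of the 8 genes stacked by group, with the SD of the summed level (n = 3) as a black bar. The sum is 208 TPM in the STAT3 knockout and 781 TPM in Srci1 TH17 cultures, and the Socs2 segment is larger in both Srci1 groups than in both DMSO groups.

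Across the 15 libraries Cish and Socs2 varied together (r = 0.875 on log2(TPM + 1)), as did Cish with Socs1 (r = 0.798) and Socs3 (r = 0.778), and Socs4 with Socs7 (r = 0.743). Socs1 and Socs4 ran in opposite directions (r = -0.525). These values describe 15 libraries that share 5 groups, and the knockout libraries were the lowest of all for Cish, Socs1, Socs2 and Socs3. The Stat3 and Socs3 levels did not run in parallel over all groups. Stat3 was at 157 ± 4.49 TPM in Srci1 TH17, 34.2 ± 3.90 TPM in knockout, 76.5 ± 1.58 TPM in Srci1 Treg, 134.4 ± 5.21 TPM in DMSO Treg and 120.8 ± 18.3 TPM in DMSO TH17 libraries. Among the TH17 groups the means of both genes had the same order, lowest in the knockout, which deletes Stat3 itself, and highest with Srci1. The Stat3 difference between Srci1 and DMSO TH17 cultures was not called in limma after median-of-ratios scaling (0.12, adjusted p = 0.1588). In Treg cultures the Stat3 level was thus 1.76-fold lower with Srci1 (log2 difference -0.80, adjusted p = 5.529e-05) while Socs3 was at 28.96 ± 0.96 and 29.1 ± 1.52 TPM.

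**Figure D4:**
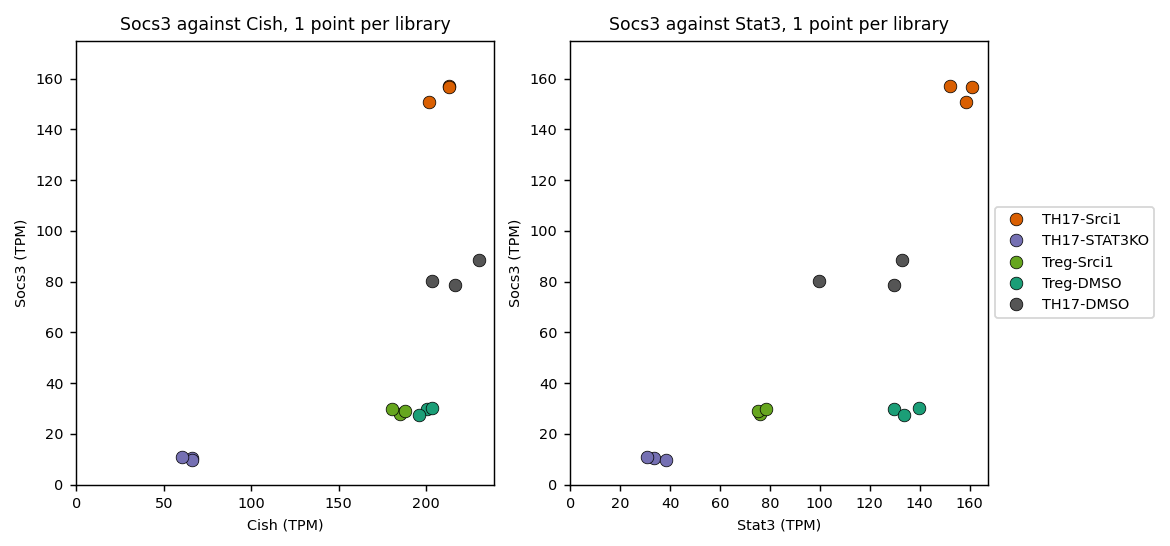
Socs3 TPM against Cish TPM (left) and Stat3 TPM (right), 1 point for each of the 15 libraries, coloured by group. Outside the knockout, Cish stays between 180.4 and 230.3 TPM while Socs3 spans 27.4 to 157 TPM, and DMSO Treg libraries average 134.4 TPM of Stat3 with 29.1 TPM of Socs3, where DMSO TH17 libraries average 120.8 and 82.5 TPM.

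The genes whose pattern over the 15 libraries was most like each member were taken by Pearson's r among 8684 genes with a mean of at least 5 TPM. For Socs2 they were Il2ra (r = 0.988), Gpr146 (0.986) and Crybg1 (0.984). Il2ra, the alpha chain of the IL-2 receptor, averaged 1208 TPM in Srci1 TH17, 372 TPM in knockout, 1066 TPM in Srci1 Treg, 727 TPM in DMSO Treg and 692 TPM in DMSO TH17 libraries, the same order as Socs2 except in the DMSO groups, which for Socs2 differed by less than their spread. For Cish they were Cd2 (0.994), Mapk11 (0.991) and Hemk1 (0.989), all lowest in the knockout. Hemk1 lies 24300 bases from Cish on chromosome 9, with no protein-coding gene between. For Socs3 they were Xpnpep1 (0.987), Hcls1 (0.981) and Fkbp1a (0.980), and for Socs1 Ifrd2 (0.932), Srm (0.931) and Rrp9 (0.929). For Socs4 they were Zbed4 (0.982), Klhl9 (0.980) and Mmgt1 (0.976), and for Socs7 Prkch (0.951), Cd6 (0.945) and Zc3hav1 (0.938). The best matches of Socs5 and Socs6, Pex10 and Ogfod1, reached 0.818 and 0.751.

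The rest of the pathway was described from 7 lists, first as deposited and then with median-of-ratios scaling, an alternative added for the lists after the data were seen. Genes said to lead a list had its smallest adjusted p in that comparison. The counts are to be read against the shares of all genes called, which moved with the scaling. With Srci1 in TH17 cultures 33.8% of all genes were higher and 7.08% lower as deposited, and 16.6% and 16.5% after scaling. In the knockout these shares were 30.9% and 18.9%, and 25.7% and 25.4% after scaling. With Srci1 in Treg cultures they were 17.1% and 10.0%, and 10.7% and 13.8% after scaling. Of 9 ubiquitin ligase partners of the SOCS box, none was called with Srci1 in TH17 cultures, where the list's median log2 difference was 0.05 against 0.21 over all genes, and 2 were called lower after scaling. In the knockout 6 were lower, also after scaling. They were led by Ube2m, a NEDD8-conjugating enzyme (137 ± 17.0 TPM in knockout and 197 ± 28.9 TPM in DMSO libraries, adjusted p = 0.000617), and Cul2, a cullin scaffold (14.5 and 22.7 TPM, adjusted p = 0.0007808). In Treg cultures Eloc, which encodes Elongin C, was the 1 gene called, higher with Srci1 (147 and 117 TPM, adjusted p = 0.04214), and it was not called after scaling (adjusted p = 0.2851).

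Of 12 other inhibitors of JAK and STAT signalling, 8 rose and 1 fell with Srci1 in TH17 cultures, where 33.8% of all genes rose and 7.08% fell. After scaling 2 were higher and 1 lower, where 16.6% and 16.5% of all genes were. Among the phosphatase genes, Ptpn1 stood at 554 ± 10.7 TPM with Srci1 and 366 ± 53.4 TPM with DMSO (adjusted p = 0.001549, and 0.06082 after scaling). Ptpn2 was lower with Srci1 (54.8 and 70.2 TPM, adjusted p = 0.00254), while in Treg cultures it was higher (66.2 and 53.7 TPM, adjusted p = 0.01115, and 0.1277 after scaling). The test of that difference in Srci1 effect gave -0.65 (adjusted p = 0.00122). In the knockout 5 of the 12 rose and 1 fell, where 30.9% of all genes rose and 18.9% fell, against 3 and 4 after scaling, where 25.7% and 25.4% did. Pias3, an inhibitor of STAT3, was higher (15.9 ± 0.63 and 6.56 ± 1.36 TPM, adjusted p = 1.304e-05), and Ptpn2 was lower (42.6 and 70.2 TPM). In Treg cultures 1 rose and 1 fell with Srci1, where 17.1% of all genes rose and 10.0% fell. After scaling 0 rose and 4 fell, where 10.7% and 13.8% of all genes did.

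Among the kinases and transcription factors that the family restrains, 2 of 4 JAK genes rose with Srci1 in TH17 cultures, where 33.8% of all genes rose and 7.08% fell. After scaling 1 was higher and 2 lower, where 16.6% and 16.5% of all genes were. The 2 as deposited were Jak1 (121 ± 8.40 and 75.2 ± 14.03 TPM, adjusted p = 0.0004615) and Tyk2, which stood near the threshold (adjusted p = 0.04967) and was at 0.03 after scaling and -0.02 under quantile normalization. In the knockout Jak3, the kinase of the common gamma chain, was 2.79-fold lower (50.3 ± 2.88 and 140.5 ± 11.6 TPM, adjusted p = 7.484e-10), Jak2 was lower and Tyk2 higher. In Treg cultures with Srci1, Jak1 was higher (109 and 75.8 TPM) and Jak3 lower (71.8 and 109 TPM, adjusted p = 3.426e-05). Of 7 STAT genes, Stat2, Stat3 and Stat6 rose with Srci1 in TH17 cultures and none fell, against 1 higher and 2 lower after scaling, where Stat3 and Stat6 were not called (adjusted p = 0.1588 and 0.2447). In Treg cultures 4 fell with Srci1, and 6 after scaling, among them Stat3 and Stat5a (126 ± 8.89 and 165 ± 12.2 TPM, adjusted p = 0.03652). There 10.0% of all genes fell, and 13.8% after scaling. In the knockout 2 rose and 3 fell, 1 of them Stat3 itself, where 30.9% of all genes rose and 18.9% fell. After scaling 2 rose and 4 fell, where 25.7% and 25.4% of all genes did. Stat4, which transduces IL-12 signals, was 2.40-fold lower (10.8 ± 2.14 and 25.9 ± 2.34 TPM, adjusted p = 1.642e-06).

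Of 22 cytokine receptor chain genes, 20 were tested. With Srci1 in TH17 cultures 12 rose and 2 fell (33.8% and 7.08% of all genes), against 7 and 5 after scaling (16.6% and 16.5% of all genes), led by Il10rb, Il6st and Ifnar1. Il6st, which encodes gp130, the chain that SOCS3 binds, stood at 23.9 ± 1.08 TPM with Srci1 and 5.95 ± 2.24 TPM with DMSO (adjusted p = 9.416e-06). In the knockout 4 rose and 12 fell, against 30.9% and 18.9% of all genes, and 4 and 13 after scaling, led by Ifngr2 (2.91 and 18.6 TPM), Il4ra (63.2 and 222 TPM) and Il12rb1 (13.3 and 63.6 TPM). In Treg cultures 5 rose and 6 fell with Srci1, against 17.1% and 10.0% of all genes, and 5 and 7 after scaling, led by Il12rb1 (28.9 and 74.5 TPM), Il12rb2 and Ifngr1. Of 16 cytokine genes 13 were tested. With Srci1 in TH17 cultures 4 rose and 7 fell (33.8% and 7.08% of all genes). In the knockout 1 rose and 9 fell (30.9% and 18.9% of all genes). With Srci1 in Treg cultures 1 rose and 8 fell (17.1% and 10.0% of all genes). After scaling these counts were 3 and 7, 1 and 10, and 1 and 9. The shares of all genes were then 16.6% and 16.5%, 25.7% and 25.4%, and 10.7% and 13.8%. Il21, a cytokine that signals through STAT3, was at 54.5 ± 6.46 TPM with Srci1 and was listed at 0 in all knockout libraries, against 205 ± 35.5 TPM in DMSO TH17 libraries. Osm, a gp130 cytokine that is also in the list of STAT-induced genes, was the 1 that rose with Srci1 in Treg cultures, at 45.4 ± 0.93 TPM against 22.7 ± 0.67 TPM (adjusted p = 3.841e-07).

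Of 16 other STAT-induced genes, all tested, of which Il2ra is also in the lists of receptor chains and Treg markers, 7 rose and 3 fell with Srci1 in TH17 cultures (median log2 difference 0.08 against 0.21 over all genes), against 4 and 8 after scaling. Over all genes 33.8% rose and 7.08% fell there, and 16.6% and 16.5% did after scaling. Pim2, a survival kinase, rose (458 ± 6.31 and 259 ± 7.30 TPM, adjusted p = 3.015e-07), while Id2, a transcriptional inhibitor (115 ± 8.01 and 302 ± 6.34 TPM, adjusted p = 1.179e-09), and Nfil3 fell. In the knockout 2 rose and 13 fell (median -0.98 against 0.13), led by Pim1, Id2 and Nfil3 (11.3 and 64.5 TPM), and scaling left 1 higher and 13 lower. Over all genes 30.9% rose and 18.9% fell in the knockout, and 25.7% and 25.4% did after scaling. In Treg cultures 6 rose and 7 fell with Srci1, also after scaling, led by Nfil3 (12.4 and 40.3 TPM), Osm and Gfi1 (24.5 and 60.7 TPM). Over all genes 17.1% rose and 10.0% fell there, and 10.7% and 13.8% did after scaling.

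Between DMSO Treg and DMSO TH17 cultures, 32.3% of all genes were higher and 12.5% lower in Treg cultures as deposited, and 21.1% and 21.8% after scaling. There, 5 of the STAT-induced genes were higher and 8 lower in Treg cultures (4 and 10 after scaling), led by Id2 (77.5 and 302 TPM), Irf1 (139 and 20.3 TPM) and Batf (79.2 and 214 TPM). Of the inhibitors 8 were higher and 2 lower (6 and 2), led by Ptpn6, the phosphatase SHP-1 (203 and 113 TPM, adjusted p = 1.186e-07). Of the 7 STAT genes 3 were higher and none lower (3 and 2). None of the ligase partners was higher and 3 were lower (5 lower after scaling), and 1 of 4 JAK genes was higher and 1 lower under both. Of the 20 receptor chains 9 were higher and 4 lower (8 and 7), and of the 13 cytokines 3 were higher and 8 lower under both.

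**Figure D5:**
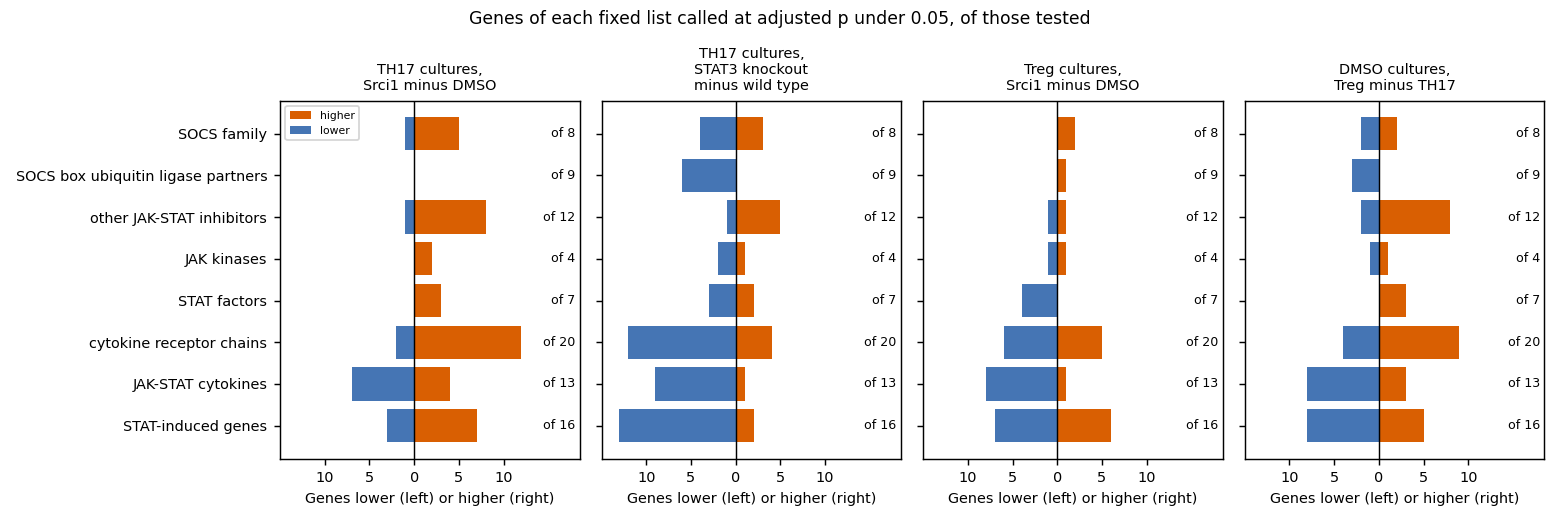
Number of genes in each pathway list called higher (orange, right) or lower (blue, left) at adjusted p under 0.05 in 4 comparisons, of the number tested given at the right. In the STAT3 knockout 13 of 16 STAT-induced genes and 12 of 20 receptor chains are lower, where 18.9% of all genes are. With Srci1 in TH17 cultures 12 of 20 receptor chains are higher, where 33.8% of all genes are. After median-of-ratios scaling 7 of the receptor chains are higher, where 16.6% of all genes are.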

How the data were processed

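The deposited table holds TPM values, with 2 decimals, for 55421 Ensembl gene IDs in 15 libraries. GRCm38, RSEM 1.3.3 and STAR 2.7.9a are named in the submitters' processing notes. Which annotation release, strand setting or filters applied is not given in the sources used here. Symbols were found for 55154 IDs, and coordinates are those of GENCODE M21 on GRCm38, 1-based.

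All 15 libraries entered 1 model of 5 group means in limma 3.58.1 (R 4.3.3) on log2(TPM + 1), with a variance trend and 10 residual degrees of freedom, for the 12800 genes that reached 1 TPM in 3 or more libraries. All 8 members passed this filter. P-values were Benjamini-Hochberg adjusted over all genes. With 3 libraries against 3, an exact permutation test of a single gene cannot go below p = 0.1, so none is given.

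Members, lists and tests were chosen with earlier results of these data known. Besides the members, Stat3, Il17a and Foxp3 served as label checks, up to 3 called genes of smallest adjusted p were eligible per pathway list and comparison, and the 3 most alike genes per member; some genes that this rule takes are not reported here. Alternatives were a pseudocount of 0.1, no filter, a filter of 5 TPM, median-of-ratios scaling, quantile normalization, rescaling without ribosomal and mitochondrial genes, only the compared groups, array weights (an estimate that stopped before its convergence tolerance was met), a replicate block, and each library left out in turn; for the pathway lists and genes, the 2 scalings were added after the data were seen. Marker lists covered CD4 T, TH17, Treg, B, myeloid and dendritic, CD8 T and NK, and gamma delta T cells. Over all 15 libraries, CD4 T markers summed to 1749 TPM or more and gamma delta T markers to 1.7 TPM or less.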

Additional observations from a re-analysis of the deposited data

Results flagged for a closer look

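Both members whose response to Srci1 differed between the cell types, by the test of the difference itself, are listed here. The Srci1 difference of Socs3 was 0.91 greater in TH17 than in Treg cultures on the log2 scale, from 0.90 in TH17 and -0.01 in Treg cultures, with all 3 Srci1 libraries above all 3 DMSO libraries in TH17 cultures. The Srci1 difference of Socs1 was -0.65 in TH17 minus Treg cultures, from -0.58 in TH17 and 0.07 in Treg cultures, with all 3 Srci1 libraries below all 3 DMSO libraries in TH17 cultures. Groups of 3 libraries are too small for a test of single libraries that stand apart.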

How the results depend on the processing

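Of 768 refits of single members, 690 kept their direction and their side of the threshold, 25 lost a call, 17 gained one and 36 changed sign, all of these 36 in differences that were not called. The number of members called stayed within 1.5 times except in Treg cultures with Srci1, where it was 1 to 2 over the left-out libraries. Sign changes under median-of-ratios scaling were Socs6 with Srci1 in TH17 cultures (-0.036), Socs1 with Srci1 in Treg cultures (-0.049), Socs6 in Treg over TH17 (-0.039), the effect difference of Socs2 (-0.013), Socs6 (-0.065) and Cish (-0.078), and Socs4 (-0.06) and Socs7 (-0.042) in Srci1 over knockout. Under quantile normalization they were, in the same order of comparisons, Socs6 (-0.09), Socs1 (-0.047), Socs6 (-0.114), Socs4 (-0.067) and Socs6 (-0.134), and Socs4 (-0.002) and Socs7 (-0.023). Without ribosomal and mitochondrial genes they were Socs4 (-0.057) and Socs7 (-0.038) in Srci1 over knockout. Of the named pathway genes Tyk2 changed sign, at -0.021 with Srci1 in TH17 cultures under quantile normalization. Leaving out single libraries gave ranges that crossed 0 for Socs6 in the knockout (-0.178 to 0.161), with Srci1 in Treg cultures for Socs3 (-0.047 to 0.023), Socs5 (-0.172 to 0.1) and Socs6 (-0.075 to 0.309), for Socs2 in Treg over TH17 (-0.079 to 0.046), for the effect differences of Socs4 (-0.038 to 0.221) and Socs6 (-0.102 to 0.281), and for Socs4 in Srci1 over knockout (-0.056 to 0.242). The causes were not tested.

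No pairing by replicate number was seen. Same-numbered libraries correlated at r = -0.171 to 0.128 in their deviations from group means, and 2 of 30 pairs were over 0.1. Differently numbered libraries reached r = 0.254, between knockout and DMSO TH17 libraries. Deviations from a mean of 3 libraries are not independent, so these values cannot show that libraries shared no mouse or batch. With a replicate block 6 members were called with Srci1 in TH17 cultures, 6 in the knockout (Socs5 at adjusted p = 0.05493) and 2 with Srci1 in Treg cultures. Low members are the least certain: SDs of Socs4, Socs5 and Socs6 reached 1.87, 1.35 and 3.36 TPM, and without read counts their counting error is unknown.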
